A study of Mus musculus with 26 samples.

Results

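The 39 genes described here encode proteins by which a young neuron builds its axon and its synapses, and they were taken by name from the 55141 genes of the deposited count table. They fall into 6 groups of function, with 13 genes of the cytoskeleton, 2 of RNA-binding proteins, 5 of membrane and adhesion proteins, 7 of vesicle and granule proteins, 7 of receptor subunits and 5 of transmitter enzymes, transporters and peptides. RNA came from gastruloids, which are balls of cultured mouse stem cells that lengthen and form trunk tissues of an embryo, and the title of the series places the study on Hoxb13 and its insulation by CTCF. The 26 libraries were made at 96h, 120h, 144h and 168h after aggregation from 8 lines, and every line, controls included, carries HoxB Del/Del(i9-13). No neuron was isolated, so each value is that of the whole aggregate.

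Del is the line with that allele alone. Ins also carries Ins(CBS5-10), and from it come InsDel5to10 with Del(CBS5-10) added, InsDel7to10 with Del(CBS7-10) and InsDel8to10 with Del(CBS8-10). The inverted allele Ins(CBS5-10):Inv(CBS5-10) is present as the separate clones InvClone1 and InvClone2, and InvDel7to10 joins Inv(CBS5-10) to Del(CBS7-10). The labels do not spell out i9-13 or CBS. Of the 18 libraries at 120h InvClone1 gave 4, Del and Ins gave 3 each, InsDel5to10, InsDel7to10 and InvClone2 gave 2 each, and InvDel7to10 and InsDel8to10 gave 1 each. The 144h set held InvClone1 with 2 libraries and InvDel7to10, InsDel8to10, Ins and Del with 1 library apiece. InvClone1 alone was sampled at 96h and at 168h, with 1 library each. Libraries carry the names ISML_first, ISML_second, ISML_third and TruSeq_second, of which the last are InvClone1 120h replicates 2 and 3, made with another kit.

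A cell that leaves the neural progenitor state first changes its cytoskeleton. Neuronal tubulin, microtubule-associated proteins and stathmins support the growing axon, neurofilaments fill it, and adhesion proteins of the immunoglobulin family guide and bundle it. RNA-binding proteins of the Elav family stabilise many neuronal messages and steer their splicing. Vesicle fusion proteins, neurotransmitter receptors and the enzymes or transporters that define a transmitter are generally used later, when contacts form. Some of these genes, among them Chga, Scg3 and Sst, are also active in endocrine cells, and Rtn1, Kif5c and Dpysl3 are found outside neurons.

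Total counts ran from 18746411 to 37716547 per library. A count of 0 allows up to 3 counts, which was 0.0778 to 0.165 CPM (counts scaled to library size with TMM factors). Of these, 2 libraries stood apart. InvClone1 144h replicate 2 had 0.0864% of its counts on mitochondrial genes, against 0.587% to 1.51% in the others. InvClone1 120h replicate 2 had counts on 54.8% of genes, where the other libraries had 37.5% to 43.4%. Many calls, ranges and means that change without either library are given both ways.

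Promoters of 4 members are shown, picked from the genes that were higher at 144h than at 120h. They hold at least 1 of the motifs searched within 150 bases of the RefSeq start. Other members that rose, among them Kif5c, Stmn3, L1cam, Ina and Crmp1, also hold such a motif there and are not shown. The choice was made after these values were seen. Each sequence shown is the 150 bases before the RefSeq start site (GRCm38.p6, all on the minus strand), written 5′ to 3′ toward the start. Sst (chr16:23890845-23890994) has in capitals the cyclic AMP response element TGACGTCA, beginning 48 bases before the start. Elavl3 (chr9:22052024-22052173) has the E-box CAGCTG 43 bases and TATAAA 33 bases before it. Elavl4 (chr4:110287528-110287677, an internal start of the gene) has the E-boxes CAGCTG and CAGATG 46 and 39 bases before it. Dcx (chrX:143933220-143933369) has TATAAA 98 bases before it.
Sst: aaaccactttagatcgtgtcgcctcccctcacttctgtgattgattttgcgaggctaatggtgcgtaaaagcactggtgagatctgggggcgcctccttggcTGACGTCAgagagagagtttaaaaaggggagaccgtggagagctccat
Elavl3: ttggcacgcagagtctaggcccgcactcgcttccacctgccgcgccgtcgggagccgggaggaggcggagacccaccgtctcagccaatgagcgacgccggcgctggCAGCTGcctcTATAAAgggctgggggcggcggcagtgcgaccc
Elavl4: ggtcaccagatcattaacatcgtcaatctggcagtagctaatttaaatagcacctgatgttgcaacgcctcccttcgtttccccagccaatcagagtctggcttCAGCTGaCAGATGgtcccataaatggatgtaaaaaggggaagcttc
Dcx: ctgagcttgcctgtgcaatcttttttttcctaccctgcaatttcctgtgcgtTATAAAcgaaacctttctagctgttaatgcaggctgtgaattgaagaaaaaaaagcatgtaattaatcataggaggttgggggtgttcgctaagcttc

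RefSeq promoters were found for 28 of the 39 genes, 38 promoters in all, and were searched on both strands in the 250 bases before the start, as were 32817 promoters of all genes. CAGCTG was in 18.4% of the members' promoters (6 genes) and 13.0% of all, and CAGATG in 23.7% (6 genes) and 14.5%. Some windows of Dcx, Elavl4 and L1cam overlap, so a site in them can count more than once. TGACGTCA was in 2 of the members' promoters (Sst and Kif5c) and in 1.55% of all. TATAAA was in 15.8% and 12.4%, and the GC box GGGCGG in 50% and 32.7%. Pieces of the element bound by REST, a repressor of neuronal genes, were searched as TTCAGCACC, found in none of the members' promoters and in 0.302% of all, and GGACAGCG, found in 3 (Crmp1, Gad2 and Gria2) and in 0.990% of all. The members' promoters had a median GC content of 57.2% and a median of 12 CpG, against 52.4% and 6 over all promoters, and GC-rich motifs move with that composition. A match describes letters only. The members were also long genes, with a median span of 49115 bp against 17887 bp for the genes tested, and 12 of 39 (30.8%) were longer than 100000 bp against 12.3%.

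Between 120h and 144h more members passed the test than in any other comparison made here. Most were genes of the cytoskeleton, the Elav proteins and the adhesion proteins. The comparisons differ in their libraries, so these counts do not rank the sizes of the changes. In the ISML_third libraries of InvClone1, 28 of 34 members were at least 2-fold higher at 168h than at 144h (11.8% of all genes). At 144h against 120h it was 11 of 32 (10.1%). The difference between 120h and 144h was measured in 5 lines (Del, Ins, InsDel8to10, InvClone1 and InvDel7to10) with 1 ISML_second library per line and stage. Of 32 members with enough counts to test, 20 were higher and 1 lower at 144h (edgeR quasi-likelihood test, Benjamini-Hochberg adjusted p under 0.05 over 15011 genes), where 9.25% of all genes were higher and 5.94% lower. The median log2 fold change was 1.11 over the members and -0.01 over all genes. All 5 libraries at 144h lay above all 5 at 120h for 18 members tested (8.67% of all genes) and below them for 1, Rtn1 (9.17%). The 18 include Dcx, Stmn4, L1cam, Glra1 and Sst, which were tested only through their 144h libraries, so their separation supports nothing beyond their levels. In either direction 15.2% of all genes passed, and 26 members and 28.7% of all genes had an unadjusted p under 0.05. The filter asked 5 libraries to reach 0.462 counts scaled to library size, and 6 members passed it through their 144h libraries only (Dcx, Stmn4, L1cam, Snap25, Glra1 and Sst), 5 of which are among the 20. Their direction was fixed by that choice, as was that of Gad1, which passed through its 120h libraries only, and these calls support nothing beyond the levels themselves. Of the 23 members that either stage alone would have passed, 15 were higher and 0 lower. The shares of all genes were taken after the same filter. In bulk RNA, more or fewer cells of a type and more or less RNA per cell cannot be told apart.

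**Figure D1:**
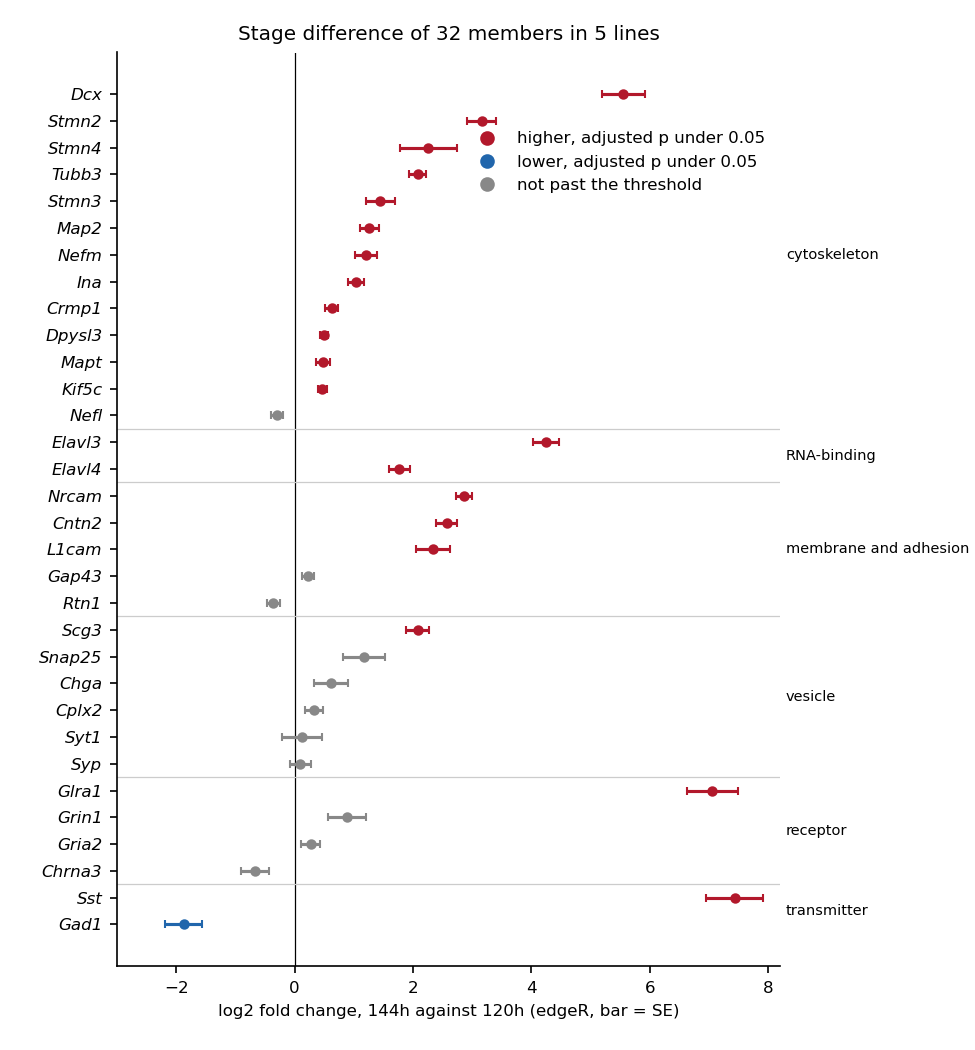
Log2 fold change at 144h against 120h (horizontal axis, point with the standard error of the edgeR fit) for the 32 members tested, grouped by function. Red points are the 20 members higher at an adjusted p under 0.05, the blue point is Gad1, and grey points did not pass. The cytoskeleton lies to the right of 0 except Nefl, and of the vesicle genes only Scg3 is red, with Snap25 (1.17 ± 0.36) and Chga (0.61 ± 0.29) to the right of 0 in grey.

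Among the 13 cytoskeletal genes 12 were higher at 144h. Dcx (chrX:143855841-143933311, build mm10), a microtubule-binding protein of migrating young neurons, stood at 0.245 CPM in Del, 0.281 in Ins, 0.0888 in InsDel8to10, 0.154 in InvClone1 and 0.332 in InvDel7to10 at 120h. At 144h the same lines, in this order, had 8.04, 6.76, 24.5, 6.76 and 10.4 CPM. The 5 libraries held 25 counts at 120h and 1240 at 144h, with a log2 fold change of 5.55 ± 0.36 (SE, adjusted p = 8.38e-05 by edgeR). With 2 to 7 counts in each 120h library it was tested only through its 144h libraries, and InsDel8to10 had the highest value at 144h.

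Tubb3 (chr8:123411423-123422015), the tubulin used as a general marker of neurons, had 11.7, 9.33, 12.2, 9.88 and 8.78 CPM at 120h in Del, Ins, InsDel8to10, InvClone1 and InvDel7to10. It had 34.7, 32.3, 66.3, 43.9 and 44.0 CPM at 144h. Every line rose, and the log2 fold change was 2.08 ± 0.14. Stmn2 (chr3:8509359-8561606), a stathmin that regulates microtubules in growth cones, had 0.775, 1.22, 1.02, 0.888 and 0.617 CPM at 120h. At 144h it had 4.52, 6.30, 11.8, 12.2 and 6.81 CPM, a log2 fold change of 3.16 ± 0.24. Its relatives Stmn3 and Stmn4 were higher by 1.45 ± 0.25 and 2.26 ± 0.48 (log2), the latter from 18 counts in all 5 libraries at 120h. Stmn4 did not pass without the Del pair or without the InsDel8to10 pair (adjusted p = 0.0589 and 0.0615 by edgeR).

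Dpysl3, a collapsin response mediator that acts on growth cones, had the highest mean FPKM of the members over the 26 libraries. It had 64.1, 59.8, 66.0, 61.4 and 63.8 CPM at 120h and 79.9, 80.6, 103, 79.7 and 98.1 CPM at 144h. The 2 sets did not overlap, yet the log2 fold change was only 0.50 ± 0.07 (adjusted p = 0.0025 by edgeR). Crmp1, of the same family, was higher by 0.62 ± 0.11, and Kif5c, a heavy chain of the axonal motor kinesin, by 0.47 ± 0.08. Map2 and Mapt, which bind microtubules in dendrites and axons, were higher by 1.26 ± 0.16 and 0.48 ± 0.12. The call on Mapt was lost in 6 of 12 alternatives (adjusted p of up to 0.321 by edgeR), among them those without the Del, Ins, InsDel8to10 or InvDel7to10 pair (0.0636 to 0.114).

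The neurofilament genes did not move together. Nefm rose by 1.2 ± 0.18 and Ina, the internexin of early neurons, by 1.04 ± 0.13 on the log2 scale. Nefl, which codes for the light subunit, had a mean of 49.4 ± 7.75 CPM at 120h and 39.6 ± 5.55 at 144h (SD, n = 5 lines), a log2 difference of -0.29 ± 0.10 that did not pass (adjusted p = 0.102 by edgeR). Without the InvClone1 pair, which holds the library of low mitochondrial share, Nefl was lower at 144h (-0.41, adjusted p = 2.38e-05). The annotated spans of Nefl and Nefm overlap, so reads in the shared stretch could be split between them by the counting. Ina likewise overlaps Nt5c2, and Crmp1 overlaps Evc.

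Both Elav genes were higher at 144h. Elavl3 (chr9:22015004-22052023) had 0.898, 1.27, 1.82, 0.888 and 1.28 CPM at 120h in Del, Ins, InsDel8to10, InvClone1 and InvDel7to10. The 144h values were 17.8, 14.2, 36.6, 30.5 and 19.0 CPM. With a log2 fold change of 4.25 ± 0.21 (adjusted p = 4.09e-05 by edgeR), the lowest line at 144h lay far above the highest at 120h. Elavl4 (chr4:110203721-110351909) had 8.90, 6.52, 8.08, 5.75 and 6.36 CPM at 120h and 25.3, 21.1, 41.3, 12.4 and 26.2 CPM at 144h. Its log2 fold change was 1.77 ± 0.17, with InvClone1 lowest at both stages, although Elavl3 in that line was the next to highest at 144h. That InvClone1 library at 144h is the one of low mitochondrial share. In the ISML_third library of InvClone1 at 144h Elavl4 was at 21.6 CPM and Elavl3 at 6.83 CPM, so this order depends on which library is read.

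**Figure D2:**
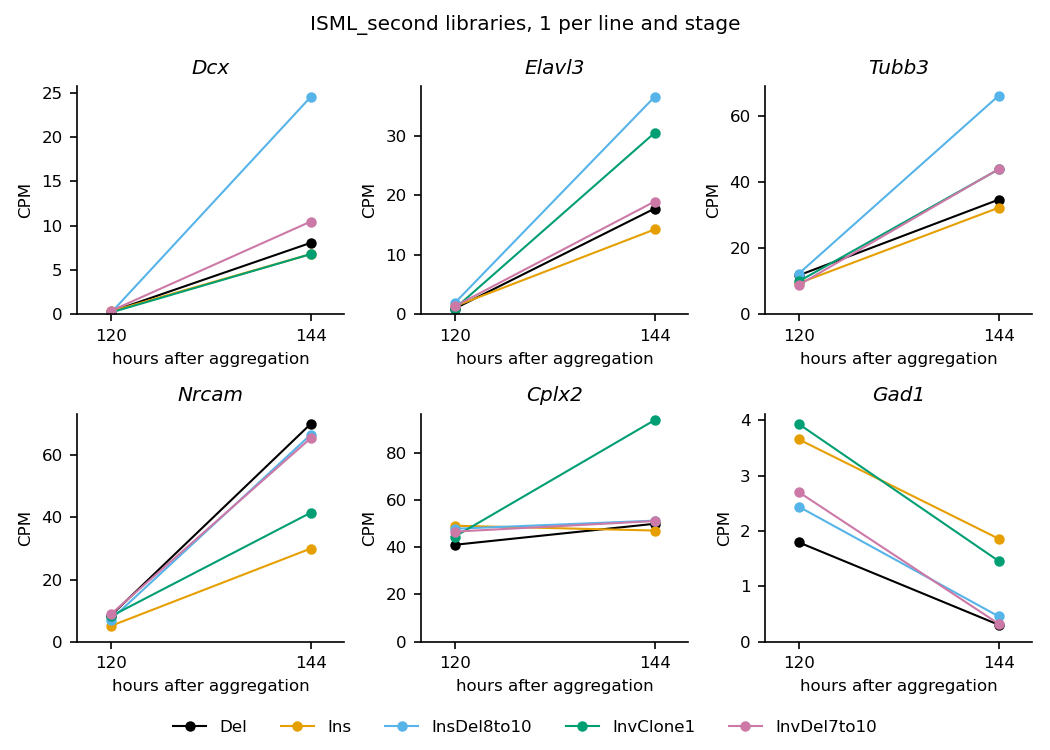
CPM (vertical axis, from 0) at 120h and 144h in 1 ISML_second library per line and stage, each line joined by its own colour. Dcx, Elavl3, Tubb3 and Nrcam rose in all 5 lines, Gad1 fell in all 5, and Cplx2 stood at 93.9 CPM in InvClone1 at 144h with 47.1 to 51.2 in the other lines.

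Of the 5 membrane and adhesion genes, the 3 adhesion proteins were higher at 144h. Nrcam (chr12:44328885-44600760), which clusters ion channels and guides axons, had 8.32, 5.02, 7.01, 8.10 and 8.73 CPM at 120h and 70.1, 30.0, 66.7, 41.5 and 65.5 CPM at 144h in the same order of lines. The log2 fold change was 2.86 ± 0.14 (adjusted p = 3.35e-05 by edgeR), the smallest adjusted p among the members. Cntn2, a contactin of early axons, had 2.49, 2.67, 2.66, 3.43 and 2.04 CPM at 120h and 9.99, 14.0, 13.7, 29.2 and 15 CPM at 144h. L1cam, a relative of Nrcam, had 0.163, 0.281, 0.311, 0.425 and 0.0949 CPM at 120h and 0.652, 1.23, 1.78, 1.61 and 1.2 CPM at 144h. Their log2 fold changes were 2.57 ± 0.17 and 2.34 ± 0.29, and neither overlapped between stages. For L1cam, tested only through its 144h libraries, this supports nothing beyond its levels.

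The other members of that group did not pass. Rtn1, a reticulon of the endoplasmic reticulum, had the highest mean FPKM of the group, with 20.6, 20.8, 21.7, 20.5 and 22.2 CPM at 120h and 14.3, 15.5, 20.3, 12.3 and 20 CPM at 144h. All 5 libraries at 144h were below all 5 at 120h, but the log2 difference of -0.36 ± 0.11 had an adjusted p of 0.0643 by edgeR, and without the InvClone1 pair it passed (-0.29, adjusted p = 0.015). Gap43, a growth cone protein, had 7.86 ± 0.62 CPM at 120h and 9.12 ± 1.35 at 144h (SD, n = 5, adjusted p = 0.175 by edgeR).

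Only Scg3 passed among the 6 vesicle genes tested. It encodes a granin of dense-core granules and had 1.02, 1.03, 1.46, 1.51 and 1.28 CPM at 120h and 4.91, 2.58, 8.21, 6.24 and 5.29 CPM at 144h, a log2 fold change of 2.08 ± 0.19 (adjusted p = 0.000307 by edgeR). Snap25, a SNARE protein of synaptic vesicle fusion, had 0.694, 0.422, 0.311, 0.579 and 0.332 CPM at 120h and 0.869, 0.930, 1.55, 0.676 and 1.33 CPM at 144h. Its stages overlapped, and the log2 difference of 1.17 ± 0.36 did not pass (adjusted p = 0.0669 by edgeR), although it did in 4 of 11 alternatives, among them that without the InvClone1 pair (1.39, adjusted p = 0.0074). Chga, another granin, had 1.31, 1.88, 2.17, 2.28 and 2.04 CPM at 120h and 2.04, 2.16, 3.56, 7.08 and 1.47 CPM at 144h.

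Cplx2, a complexin that clamps vesicle fusion, had the highest FPKM of the vesicle group. It had 41.0, 49.1, 47.8, 44.5 and 46.6 CPM at 120h and 49.9, 47.1, 51.2, 93.9 and 51.1 CPM at 144h. The highest value was the InvClone1 library with the low mitochondrial share, and the ISML_third library of InvClone1 at 144h had 39.2 CPM. Without the InvClone1 pair the log2 difference of Cplx2 was 0.12, against 0.33 ± 0.16 with it, and neither passed. Syp and Syt1, a membrane protein and a calcium sensor of synaptic vesicles, differed by 0.10 ± 0.18 and 0.13 ± 0.34 and changed sign between alternatives. Syt4, a related synaptotagmin, was too low to test, with 14 counts in the 5 libraries at 120h and 54 at 144h.

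Among the receptor subunits Glra1, of the inhibitory glycine receptor, was higher at 144h. It had 2 counts in the 5 libraries at 120h and 322 at 144h, a ratio of 170 after scaling (95% counting interval 46.5 to 1406). The 144h values were 2.87, 1.94, 3.69, 3.54 and 2.81 CPM in Del, Ins, InsDel8to10, InvClone1 and InvDel7to10. Like Dcx, Stmn4, L1cam and Sst, it was tested only because its 144h libraries reach the filter on low counts.

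Chrna3, a nicotinic receptor subunit of autonomic neurons with the highest mean FPKM of the receptor group, had 3.96, 4.64, 4.48, 4.09 and 4.79 CPM at 120h and 2.17, 3.59, 4.56, 1.2 and 2.94 CPM at 144h. The log2 difference of -0.67 ± 0.24 did not pass (adjusted p = 0.105 by edgeR). Grin1, the subunit that all NMDA receptors share, had 0.694, 0.469, 0.355, 0.540 and 0.380 CPM at 120h and 0.869, 0.846, 1.23, 1.35 and 0.322 CPM at 144h (adjusted p = 0.109 by edgeR). Gria2, of the AMPA receptor, differed by 0.28 ± 0.16 on the log2 scale. Gria1 had 14 and 7 counts and Gabra2, of the GABA receptor, 7 and 5 counts over the 5 libraries at 120h and 144h. Glra2 had 1 count in all 26 libraries.

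Of the transmitter genes only Sst and Gad1 were tested. Sst passed the filter through its 144h libraries only and Gad1 through its 120h libraries only. Their directions in the test were fixed by that choice, and the values below describe levels. Sst, the peptide somatostatin, had 1 count in the 5 libraries at 120h and 264 at 144h, a ratio of 278 after scaling (95% counting interval 49.5 to 11020). At 144h it had 1.82, 2.28, 2.55, 2.97 and 2.53 CPM, a narrow range over the 5 lines. The ISML_third library of InvClone1 at 144h had 1 count of Sst (0.0443 CPM), against 2.97 CPM in the ISML_second library of that line, so the level at 144h was not the same in both. Gad1, an enzyme that makes GABA, had 1.80, 3.66, 2.44, 3.94 and 2.7 CPM at 120h and 0.304, 1.86, 0.456, 1.46 and 0.322 CPM at 144h. It fell in every line, by 1.88 ± 0.32 on the log2 scale (adjusted p = 0.00581 by edgeR), and the lines that stayed highest were Ins and InvClone1.

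The vesicular transporters that define fast transmitters were near 0. Slc17a6, which loads glutamate, reached 7 counts in its highest library of all 26, and Slc32a1, which loads GABA and glycine, reached 12. Gad2, the other GABA enzyme, had 23 counts in the 5 libraries at 120h and 30 at 144h. At this depth their levels are near the floor and no direction can be read from them.

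Some markers of gut hormone cells were higher at 144h in the same libraries as Sst. Ghrl, the peptide ghrelin, had between 0 and 0.0949 CPM in the 5 libraries at 120h and between 1.78 and 4.16 CPM at 144h. Pdx1 and Nkx2-2, listed here with endoderm and enteroendocrine genes, were higher by 3.36 ± 0.29 and 2.37 ± 0.27 on the log2 scale. At 120h Pdx1 reached 0.326 CPM and Nkx2-2 0.386 CPM at most in these libraries, under the filter's 0.462. Like Sst, Ghrl, Pdx1 and Nkx2-2 were thus tested only through their 144h libraries, and their direction was fixed by that choice. Of the endoderm and enteroendocrine list 8 of 14 genes tested were higher and 2, Sox17 and Cdx2, were lower. Its summed level ran from 377 to 464 CPM at 120h and 413 to 581 CPM at 144h. Its markers were not at 0, and their part in the Sst result was not tested. In the ISML_third library of InvClone1 at 144h, Sst, Ghrl and Pdx1 had 1 count each and Nkx2-2 had 0. In the 168h library of InvClone1, Sst was at 2.53 CPM while Ghrl was at 0.285, Pdx1 at 0.107 and Nkx2-2 at 0.0713 CPM.

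Genes of the same pathways outside the 39 were read from lists drawn up with the members. Of 20 other neuronal cytoskeletal genes 14 were higher and 1 was lower at 144h, among them Tubb2b (1.07 ± 0.08), Dpysl4 (1.35 ± 0.11) and Map1b (1.23 ± 0.15), while Prph, the peripherin of peripheral neurons, fell by 2.29 (SE 0.23). Other vesicle genes split evenly, with 4 higher and 4 lower of 20, such as Syt11 (1.27 ± 0.12) and Bsn (1.12 ± 0.21) against Sv2b, which fell by 1.90 (SE 0.17). Of 15 other receptor subunits 3 were higher and 4 lower, with Chrna4 at 2.47 ± 0.17 and Grik3 at 1.22 ± 0.12, and with Chrnb4 and Gabrb2 falling by 1.86 (SE 0.27) and 1.33 (SE 0.22). Of 7 other transmitter genes Ddc and Slc18a3, the vesicular acetylcholine transporter, were higher by 1.28 ± 0.13 and 1.40 ± 0.27, and Slc6a9, a glycine transporter, fell by 0.93 (SE 0.11).

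Lists of earlier neural states and of other tissues also moved. Of 16 neural progenitor genes 14 were higher and 2 lower, among them Sox1 (1.92), Pax6 (2.98), Sox2 (1.58) and Fabp7 (2.58), all higher. Of 18 proneural and early neuronal genes 13 were higher and 3 lower, with Neurod4 (5.56), Onecut1 (2.89), Myt1 (6.29) and Neurog2 (3.82) higher. The lower ones were Dll1 (-1.03), Dll3 (-1.92) and Ebf3 (-0.50). The summed level of this list did not rise with the count, with 326 to 404 CPM at 120h (median 360) and 279 to 414 CPM at 144h (median 288). Spinal neuron identity genes had 6 higher and 3 lower of 16, with Lhx3 (5.72 ± 0.47), Lhx4 (4.99 ± 0.48) and Isl1 (1.46 ± 0.22) higher and Lhx1 lower by 2.10 (SE 0.26). Tailbud and presomitic genes had 11 of 12 lower and their summed level ran from 570 to 699 CPM at 120h and from 195 to 345 CPM at 144h. Neural crest and peripheral genes had 1 higher and 3 lower of 9, and pluripotency genes 1 lower of 8 (Fgf4). Muscle and cardiac genes had 2 higher of 8 (Ttn, 3.76, and Hand2, 1.99). At 120h Ttn was at 2.91 CPM in Ins and at most 0.163 CPM in the other lines, under the filter's 0.462. At 144h it ran from 0.739 to 20.7 CPM. Ttn was thus tested only through its 144h libraries, and its direction was fixed by that choice. The summed level of the muscle and cardiac list ran from 12.5 to 270 CPM over the 144h libraries. The part of these tissues in the members' changes was not tested. Apart from Ttn, Ghrl, Pdx1 and Nkx2-2, the stage through which listed genes outside the members passed the filter is not given. Calls on such genes that were low at either stage, in every list, may carry the same limit. Rest itself differed by -0.19 ± 0.06 (adjusted p = 0.0749 by edgeR), and of the 12 genes tested of the REST and corepressor list Kdm1a alone passed, at 0.21 ± 0.05.

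The single libraries of the lines differed in how high they stood at 144h. InsDel8to10 had the highest value of the 5 lines for 11 of the 20 members that rose and InvClone1 for 7, while Ins had the lowest for 11. The InvClone1 library used here is the one of low mitochondrial share, and it differed widely from the other InvClone1 library at 144h. Summed over the 39 genes, InsDel8to10 went from 366 to 734 CPM and Ins from 323 to 469 CPM. With 1 library per line and stage this order rests on single libraries. The stage effect of each line was set against the mean of the other 4 lines in a fit of all 26 libraries, a test added after the values were seen. It called 0 of 35 members, as it did 0 of 17769 genes, in each of the 5 lines by edgeR, with 4 line and gene pairs at an unadjusted p under 0.05, and no other tool was run. The smallest unadjusted p in InsDel8to10 was that of Dcx (log2 difference 3.11 ± 1.29, adjusted p = 1 by edgeR).

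The ISML_third pair of InvClone1 offered a further look at the same stages, with no replicate. Of the 20 members higher in the 5 lines 19 had over 3 counts there, and 16 of these were also higher at 144h than at 120h, the others being Stmn3, Ina and Dpysl3. Sst had 0 counts at 120h and 1 at 144h, under the floor. Of 32 members with counts in that pair 11 were at least 2-fold higher (10.1% of all genes) and 3 at least 2-fold lower (5.5%). Elavl3 went from 0.508 to 6.83 CPM, Nrcam from 7.57 to 106 and Tubb3 from 1.98 to 11.7 CPM. The 2 InvClone1 libraries at 144h differed widely: Cntn2 had 3.33 CPM in the ISML_third and 29.2 in the ISML_second library, and Nrcam 106 and 41.5.

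The 168h library of InvClone1 held the highest levels of most members. In the ISML_third course of 1 library per stage, 31 of the 35 members with over 3 counts at any stage were highest at 168h. Rtn1, L1cam, Chrna3 and Gad1 were highest at 96h. The share of all genes highest at 168h was not computed, so the count of 31 has no background beside it. The members took 0.170% of all counts at 168h, against 0.0442% in the ISML_third library at 144h and 0.0283% to 0.0381% in the 120h libraries. Of 34 members 28 were at least 2-fold higher at 168h than at 144h in these libraries (11.8% of all genes) and 0 at least 2-fold lower (3.98%).

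In these libraries the receptor subunits summed to 4.97 CPM at 144h and 31.6 at 168h (6.36 times), the Elav genes to 28.5 and 175 (6.14 times) and the cytoskeletal genes to 223 and 1026 CPM (4.60 times). The transmitter genes summed to 1.15 and 4.03 CPM (3.50 times), the membrane and adhesion genes to 125 and 282 (2.25 times) and the vesicle genes to 46.8 and 97.4 CPM (2.08 times). The other 144h library of InvClone1, of low mitochondrial share, had sums of 7.70, 43.0, 379, 4.99, 95.8 and 115 CPM for the same groups, so these ratios depend on the 144h library, and the vesicle and transmitter sums there exceed those at 168h. Cntn2 had 32.6 times its 144h level, Dcx 27.3, Stmn2 27.0 and Tubb3 13.9 times. Dcx ran through 0.203, 0.138, 3.50 and 95.6 CPM from 96h to 168h (the last with a 95% Poisson interval of 92.0 to 99.3), so it was higher at each of the later stages than at the stage before. Nrcam, with 6.86, 7.57, 106 and 126 CPM, was near its 168h level at 144h in this series, and Stmn2, with 20.8, 1.75, 1.95 and 52.7 CPM, was not. The ISML_second libraries of InvClone1 gave other values, with Nrcam at 8.10 CPM at 120h and 41.5 at 144h and Stmn2 at 0.888 and 12.2 CPM, so the timing of either gene rests on which 144h library is read.

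Vesicle and receptor genes that did not pass between 120h and 144h were among those higher at 168h. Snap25 ran through 0.446, 0.231, 0.488 and 6.35 CPM, and Chrna3 through 19.5, 4.34, 1.68 and 15.4 CPM, so that it was lowest at 144h. Scg3 reached 17.2, Syp 9.84, Syt1 2.14, Grin1 1.61 and Gria2 2.39 CPM at 168h. Glra1 reached 11.8 CPM from 1.24 at 144h. Gad1 stayed at 0.820 CPM, and Slc17a6, Slc32a1 and Gad2 had 1, 2 and 16 counts at 168h, while Gria1 had 8, Gabra2 2 and Glra2 0.

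Tested in a fit of all 26 libraries with terms for group and library name, 11 of 35 members were higher at 168h than in the 2 InvClone1 libraries at 144h and 0 were lower (edgeR, adjusted p under 0.05 over 17769 genes), where 0.754% of all genes were higher, 0.0844% lower and 0.839% either. At an unadjusted p under 0.05 were 26 members and 15.3% of all genes. They were Map2, L1cam, Crmp1, Ina, Dcx, Stmn4, Tubb3, Elavl4, Gap43, Snap25 and Chrna3. The median log2 difference was 2.51 over the members and 0.10 over all genes, and all 35 were positive. Map2 differed by 2.23 ± 0.33, L1cam by 4.13 ± 0.62, Dcx by 4.69 ± 0.75 and Snap25 by 3.88 ± 0.79. The count rests on few libraries: it was 1 (Map2) without InvClone1 144h replicate 1, 4 (Gap43, Ina, L1cam and Stmn2) without replicate 2, the library of low mitochondrial share, and 4 (Chrna3, Dcx, Ina and Map2) with no library term. This comparison shares its 144h libraries of InvClone1 with the stage comparison above, so the calls are not independent of each other.

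Of the listed genes outside the 39, 4 of 20 cytoskeletal, 3 of 23 vesicle and 2 of 17 receptor genes were also higher at 168h and 0 lower, among them Tubb2b (1.45 ± 0.26), Dpysl4 (1.94 ± 0.33), Chrna4 (2.59 ± 0.41) and Chrnb4 (2.97 ± 0.53). Chrnb4, which pairs with Chrna3 in nicotinic receptors, was lower at 144h than at 120h and higher at 168h than at 144h, and the log2 differences of Chrna3 were -0.67 ± 0.24, which did not pass, and 3.30 ± 0.61. The proneural and early neuronal list had 6 of 18 higher and the spinal neuron identity list 4 of 19. The endoderm and enteroendocrine list had 0 of 14, the neural progenitor list 0 of 16 and the muscle and cardiac list 0 of 10 higher or lower in that fit, with 1, 5 and 2 at an unadjusted p under 0.05.

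Some members were already high at 96h and lower at 120h in InvClone1. L1cam had 520 counts (21.1 CPM) in the 96h library and 0.270 ± 0.108 CPM in the 4 libraries at 120h (SD). Stmn2 went from 20.8 to 1.56 ± 0.60 CPM, Ina from 30.3 to 6.58 ± 0.57 and Crmp1 from 43.7 to 18.3 ± 8.23 CPM. Chga went from 3.65 to 1.92 ± 0.84 CPM and Syt4 from 0.893 to 0.0800 ± 0.0446 CPM. In the opposite direction, Mapt went from 0.406 to 4.19 ± 1.39 CPM and Dpysl3 from 28.8 to 74.7 ± 14.6 CPM. At 120h without replicate 2 (SD, n = 3), L1cam had 0.289 ± 0.123, Stmn2 1.32 ± 0.43, Ina 6.49 ± 0.66 and Chga 1.62 ± 0.73 CPM. Syt4 then had 0.0715 ± 0.0505, Mapt 4.80 ± 0.81 and Dpysl3 69.5 ± 12.7 CPM. Without replicate 2, Crmp1 had 14.6 ± 4.27 CPM at 120h (SD, n = 3), and the same 8 members were called together with Elavl4.

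These 8 of 35 members passed the test of 120h against 96h in the fit of all 26 libraries, 2 higher and 6 lower (edgeR, adjusted p under 0.05), where 2.63% of all genes were higher, 3.84% lower and 6.47% either. At an unadjusted p under 0.05 were 20 members and 21.8% of all genes. The log2 differences were -7.13 ± 0.65 for L1cam, -4.36 ± 0.78 for Stmn2, -2.59 ± 0.48 for Ina, 3.42 ± 0.67 for Mapt and 1.42 ± 0.26 for Dpysl3. Without InvClone1 120h replicate 1, which is the only 120h library of that line under the library name of the 96h library, 0 were higher and 8 lower, with an adjusted p of 0.0658 for Mapt and 0.114 for Dpysl3 (edgeR). That library alone had 101 counts of Mapt against 10 at 96h. Over the alternatives run, the call on Syt4 was lost in 3 of 7 and that on Crmp1 in 2 of 9. The calls on Chga, Mapt and Dpysl3 were lost in 1 of 9 each, and the log2 difference of Chga ran from -3.82 to -0.921. In the ISML_third libraries alone 7 of 32 members were at least 2-fold higher at 120h than at 96h (7.96% of all genes) and 13 at least 2-fold lower (13%). In the same comparison 8 of 12 tailbud and presomitic genes were lower and 2 neural progenitor genes, Fabp7 and Notch1, were lower while Pax3 and Pax7 were higher. The 96h group has 1 library, whose spread is assumed to be that of the replicated groups.

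Levels between genes can be compared by FPKM (fragments scaled to transcript length and library size). In the ISML_second libraries at 120h Nefl stood highest at 11.8 ± 1.86 FPKM, then Dpysl3 at 9.80 ± 0.35, Cplx2 at 8.05 ± 0.52, Rtn1 at 6.74 ± 0.33 and Kif5c at 5.11 ± 0.31, with Tubb3 at 4.40 ± 0.73 (SD, n = 5). At 144h the order was Tubb3 at 19.3 ± 5.67, Dpysl3 at 13.8 ± 2.27, Nrcam at 11.4 ± 3.18, Cplx2 at 10.3 ± 2.87 and Nefl at 9.56 ± 1.12 FPKM, and the SD ranges of Nrcam, Cplx2 and Nefl overlapped. Cplx2 had 15.4 FPKM in the InvClone1 library of low mitochondrial share and 8.62 to 9.31 in the other lines. Its place above Nefl depends on that library. In the 168h library Tubb3 stood at 70.5 FPKM, followed by Dpysl3 at 28.4, Nrcam at 24.4, Elavl4 at 22.7 and Nefm at 21.7. Sst, with a short transcript, was at 2.69 ± 0.36 FPKM at 144h, level with Stmn2 at 2.88 ± 1.17.

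At 120h, where 8 lines can be compared, most members were low. Of the 39 genes 17 had a median under 1 CPM over the 18 libraries, 16 were between 1 and 10 CPM and 6 at 10 CPM or more (Dpysl3, Kif5c, Nefl, Cplx2, Rtn1 and Crmp1), while 21 were at 10 CPM or more in the 168h library. Among the 22 members with a median of at least 1 CPM, Kif5c varied least, from 36.6 to 62.6 CPM (coefficient of variation 13.7%), followed by Rtn1 at 15.5% and Dpysl3 at 17.8%. Nrcam varied most, from 2.49 through a median of 7.84 to 32.9 CPM (76.3%), and Stmn2 and Gad1 followed at 53.8% and 53.0%. Without InvClone1 replicate 2, which had the most genes detected, Nrcam ran from 2.49 to 28.7 CPM (71.1%) and again varied most.

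The spread of Nrcam lay within lines. In each of Del, Ins, InsDel5to10, InsDel7to10 and InvClone1 a library stood far above the others of its line: 19.4 CPM in Del replicate 2, 28.7 in Ins replicate 2, 23.9 in InsDel5to10 replicate 1, 18.5 in InsDel7to10 replicate 1 and 32.9 in InvClone1 replicate 2. The other libraries of these lines were between 2.49 and 8.32 CPM. Tubb3 also differed within lines, with 12.8 and 3.51 CPM in InsDel5to10 and with 1.98, 16.2, 5.65 and 9.88 CPM in InvClone1, where 16.2 CPM is replicate 2. Without that library Tubb3 ran from 1.98 to 14.8 CPM over the 120h libraries.

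**Figure D3:**
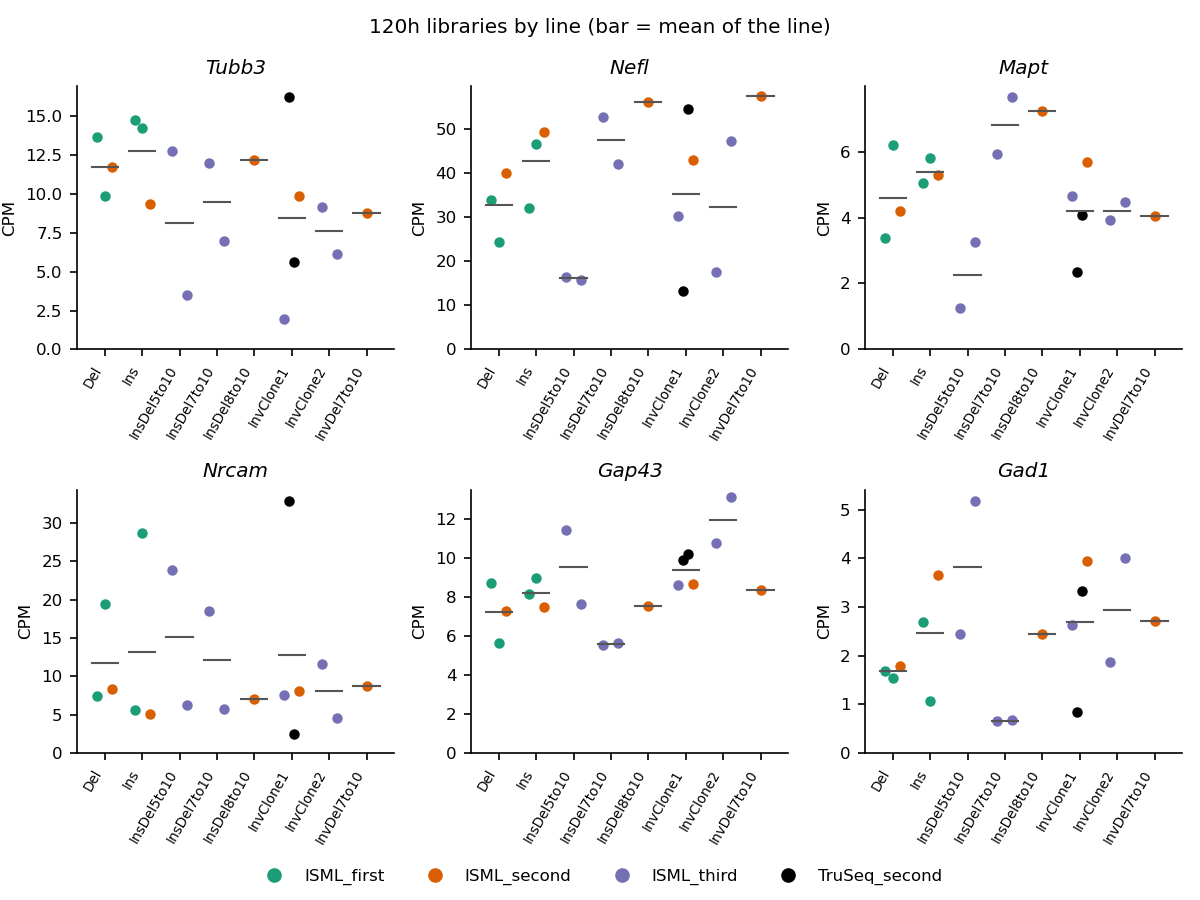
CPM (vertical axis, from 0) of 6 members in the 18 libraries at 120h by line, with points coloured by library name and a bar at each line's mean. Nrcam shows 1 high library in 5 of the lines, and the 2 libraries of InsDel7to10 sit low for Gad1, at 0.658 and 0.667 CPM.

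None of the 5 comparisons of lines at 120h called a member at an adjusted p under 0.05 by edgeR, over 35 members tested in the fit of all 26 libraries. Ins against Del, the insertion against its parent allele, called 0.00563% of all genes, and 1 member and 1.06% of all genes had an unadjusted p under 0.05. InvClone1 against Ins, the inverted against the forward insertion, called 0.0169%, with 0 such members and 0.951% of genes. InsDel5to10 against InvClone2 called 0.152% of genes (0.129% higher, 0.0225% lower), with 3 such members and 6.53% of genes. InsDel7to10 against InvClone2 called 0.141% (0.113% higher, 0.0281% lower), with 4 and 8.93%. InsDel7to10 against InsDel5to10 called 0.253% (0.129% higher, 0.124% lower), with 7 and 10.7%. DESeq2 called 2 members, Gad1 and Mapt, in the last comparison and 0 in the other 4. A p that misses the threshold does not show that lines were alike, since the median SE of a member's log2 difference ran from 0.51 in Ins against Del to 0.72 in InvClone1 against Ins.

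Some members with no call had groups that did not overlap, and their values follow without a claim of a difference. In InsDel7to10 against InsDel5to10, Gad1 had 0.658 and 0.667 against 2.45 and 5.19 CPM (log2 difference -2.52 ± 0.69, adjusted p = 0.19 by edgeR). Mapt had 5.92 and 7.67 against 1.25 and 3.26 CPM (1.58 ± 0.42, adjusted p = 0.173). Nefl had 52.9 and 42.2 against 16.4 and 15.9 CPM (1.56 ± 0.59, adjusted p = 0.386), and Nefm 7.84 and 10.2 against 3.20 and 3.21 CPM. Gad1 in these InsDel7to10 libraries was the lowest of the 18.

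Against InvClone2 the same InsDel7to10 libraries had lower Gap43, with 5.54 and 5.62 against 10.8 and 13.1 CPM (-1.10 ± 0.31, adjusted p = 0.259 by edgeR), and higher Chrna3, with 7.29 and 12.1 against 4.30 and 2.39 CPM (1.54 ± 0.47, adjusted p = 0.318). InsDel5to10 had 7.25 and 7.07 CPM of Chrna3, also above both InvClone2 libraries (1.10 ± 0.47, adjusted p = 0.762 by edgeR). These comparisons share libraries, so their values are not independent. In Ins against Del, Stmn4 had 0.179, 0.536 and 0.234 against 0.117, 0.181 and 0.0408 CPM, overlapping between the lines (1.48 ± 0.59, adjusted p = 1 by edgeR).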

How the data were processed

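Polyadenylated RNA was measured in 26 libraries of 15 groups, 8 of which hold 1 library. The authors deposited whole-number counts per gene (55141 genes) and FPKM values (55138 genes). The tools named, per the submitters' processing notes, are STAR 2.7.10a, Cufflinks 2.2.1 and cutadapt 1.18, with build mm10. No source read here gives the counting strand or the annotation release, so overlapping and antisense genes are uncertain. Of the columns, 8 (4 from either file) matched no sample and were not used. Coordinates are those of the FPKM table, and promoters come from RefSeq GRCm38.p6, whose starts need not match that annotation.

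The count test was that of edgeR 4.0.16 under R 4.3.3 (quasi-likelihood, robust, TMM, minimum count 10, Benjamini-Hochberg over all genes, threshold 0.05). The stages 144h and 120h were compared in 10 ISML_second libraries with line as a term (15011 genes). Other comparisons used all 26 libraries with group and library name as terms (17769 genes), which assumes that a lone library varies like replicated groups. Alternatives used DESeq2 1.42.0, other filters and left-out libraries. Fold changes are log2 with the SE of the fit, levels are mean ± SD, and the test was run on simulated data first. Intervals (95%) and floors cover counting error only. Whether replicates are separate cultures is not stated in the labels. The p-values then reflect only how these samples vary, which may be technical.

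The members, gene lists, tests and alternatives were chosen with earlier results of these data known. All 39 members are named. Values per library are given, in each group, for the 3 members at most whose adjusted p between 144h and 120h was smallest and for the one with the highest mean FPKM, and up to 4 genes per other list are named by adjusted p, besides Rest. Of these, 1 is not reported here. Others with their values were chosen after the values were seen. Pairing by replicate number was checked as the correlation of deviations from the group means over genes. Ins and Del libraries of the same number gave 0.627, 0.408 and 0.770. In both lines replicates 1 and 2 are ISML_first and replicate 3 is ISML_second, so the check cannot tell pairing from library name. Between ISML_first libraries, Ins replicate 2 with Del replicate 1 gave 0.330 and Ins replicate 1 with Del replicate 2 gave 0.00208. The main fit held library name as a term and no pair.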

Additional observations from a re-analysis of the deposited data

How the results depend on the processing

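The count of members past the threshold between 120h and 144h was 21, and 16 to 24 over 12 alternatives (19 to 24 with 1 pair of lines left out, 24 without the InvClone1 pair that holds the library of low mitochondrial share). Of the members called, Mapt was lost in 6 alternatives, Stmn4 in 2, and Stmn3, Nefm and Crmp1 in 1 each, while Rtn1 and Snap25 were gained in 4 each, Nefl in 2, and Grin1 and Chrna3 in 1 each. Among the members tested, only Syp and Syt1, neither called, changed sign, and the cause was not tested. Syp (0.0966) was at -0.0725 in the fit of all 26 libraries, -0.0353 with the ISML_third pair added, and -0.0757 (without the InvClone1 pair) to 0.191 with a pair left out. Syt1 (0.126) was at -0.127, at -0.216, and at -0.195 (without the InsDel8to10 pair) to 0.409. For 120h against 96h the count of 8 ran from 6 to 17, the highest with no filter, and 7 to 9 with 1 library left out. For 168h against 144h the count of 11 became 27 with no filter, 4 with no library term and 1 to 4 with a 144h library left out. In the line comparisons, where 0 members were called, no filter gave 3 in InsDel5to10 against InvClone2, 3 in InsDel7to10 against InvClone2 and 5 in InsDel7to10 against InsDel5to10, DESeq2 gave 2 in the last, and leaving out 1 library gave 0 to 1 in InvClone1 against Ins (Stmn2, without InvClone1 120h replicate 4). Counts over all genes moved more: 2280 between 120h and 144h against 1365 to 4831 (the highest without the InvClone1 pair), 149 at 168h against 24 to 1133, 1150 at 120h against 96h against 716 to 2224, and at most 957 in any line comparison. The planned fit without all ISML_third libraries of InvClone1 and the 2 libraries that stood apart gave no value for 120h against 96h and 168h against 144h, since no 96h or 168h library is then left. Leaving out the library that stood apart alone gave 9 and 4 members.

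With the replicate number as a block, in a fit of the compared libraries alone, 0 members were called in Ins against Del, InvClone1 against Ins, InsDel7to10 against InvClone2 and InsDel7to10 against InsDel5to10, and 3 (Chrna3, Nefm and Nrcam) in InsDel5to10 against InvClone2. The labels give no pairing beyond the number. Outside Ins against Del, the correlations of same-numbered libraries were 0.202, 0.494 and 0.0876 for InvClone1 and Ins. They were 0.437, -0.283 and -0.181 in the 3 comparisons of 2 against 2. Crossing the numbers in the comparisons with a negative value, chosen after seeing the data, called 0 members in both.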
